A study of Mus musculus with 16 samples.

Results

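The cytosolic ribosomal protein genes were followed across the somatodendritic and axonal compartments of cultured mouse motoneurons with and without Hnrnpr. Members were the protein-coding genes of the count table with an Rpl or Rps symbol followed by a digit, plus Rplp0, Rplp1, Rplp2 and Rpsa and without the Rps6k kinases. The rule found 105 of 46320 genes, 60 with large subunit and 45 with small subunit names. Of these, 77 encode the standard proteins of the ribosome, 6 are named as paralogues of such a gene, 20 are retrocopies that the annotation lists as protein-coding, and Rpl7l1 and Rps19bp1 carry similar names without encoding a ribosomal protein. Expression was high enough for a test in 93 members, 57 large and 36 small, which include all 77 standard genes. The rule does not reach Fau and Rack1, which also encode ribosomal proteins, and their values are given apart.

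The motoneurons were enriched with an antibody to p75NTR from lumbar spinal cords of embryonic day 13 mice and grown in microfluidic chambers with CNTF in both compartments and BDNF on the axonal side. Both genotypes came from a line in which CRISPR/Cas9 removed exons 1 to 5 of Hnrnpr in every cell, backcrossed for at least 4 generations to C57Bl/6, so +/+ and Hnrnpr-/- libraries differ by a constitutive deletion. Each of the 4 groups, +/+ somatodendritic, +/+ axonal, Hnrnpr-/- somatodendritic and Hnrnpr-/- axonal, held 4 libraries of polyadenylated RNA. The study describes the 4 libraries of a group as biological replicates. The labels do not say how many embryos or cultures stand behind a library, so p values measure the spread between these libraries.

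A ribosome consists of a small subunit, which reads the mRNA, and a large subunit, which forms the peptide bonds and releases the chain through an exit tunnel. Each standard ribosomal protein gene encodes a different protein, and most of their mRNAs carry a terminal oligopyrimidine (TOP) tract, a run of C and T at the start of the mRNA through which mTORC1 and Larp1 set their translation. The mRNAs are short, and processed pseudogenes of them are scattered through the mouse genome. Ribosomal protein mRNAs are a known component of axonal RNA in several kinds of neuron, and local synthesis of some of these proteins has been studied in axons.

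Library totals ranged from 22024923 to 34864151 counts. Hnrnpr was at 119.9 to 422 CPM (counts scaled to library size with TMM factors) in the 8 +/+ libraries and at 0.544 to 1.16 CPM in the 8 Hnrnpr-/- libraries. Somatodendritic cDNA went through 10 cycles of PCR and axonal cDNA through 15, so amplification and compartment cannot be told apart. The 7 neuronal markers summed to 2419 to 4137 CPM in somatodendritic and 202 to 1783 CPM in axonal libraries. Tubb3, Map2 and Snap25 averaged 1347, 1070 and 1226 CPM in +/+ somatodendritic libraries, so the sum reflects mainly those genes. Isl1, Slc18a3 and Chat averaged 5.09, 8.04 and 0.899 CPM there and 1.73, 0.543 and 0.0162 CPM in +/+ axonal libraries. Mnx1, a defining motoneuron gene, was at 0 in all libraries but 1, where it was at 0.06 CPM. The 6 markers of astrocytes or radial glia summed to 902 to 2006 CPM in somatodendritic and 1900 to 4700 CPM in axonal libraries, and the 7 markers of fibroblasts, pericytes or meningeal cells to 37.2 to 609.8 and 153 to 1743 CPM. In edgeR's test, 30.1% of all genes were higher and 27.4% lower in +/+ axons, and 27.5% and 26.8% in Hnrnpr-/- axons. Of 6 tested neuronal markers, 5 were lower in axons of each genotype. Of 6 astrocyte or radial glia markers, 4 were higher in +/+ and 2 in Hnrnpr-/- axons. Of 7 fibroblast, pericyte or meningeal markers, 2 were higher in each genotype. The counts of 2 are near the shares of all genes. Of 4 tested markers of oligodendroglia or Schwann cells, Olig1 was higher in axons of both genotypes, by 1.55 and 1.54 on the log2 scale. Of 3 tested endothelial markers, Kdr was higher in axons of both genotypes, by 3.12 and 3.01, Cldn5 was lower in both and Pecam1 was lower in Hnrnpr-/- axons. The 4 endothelial markers summed to at most 11.7 CPM in +/+ somatodendritic and to 24.4 to 58.0 CPM in +/+ axonal libraries, and to 6.40 to 26.5 and 21.9 to 68.5 CPM in Hnrnpr-/- motoneurons. The only tested erythroid marker and the 5 microglia or macrophage markers did not pass in either genotype, and the part of any of these cells in the results was not tested. In bulk RNA, fewer cells of a type and less RNA per cell cannot be told apart.

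Ribosomal protein genes took a larger share of the counts in axonal libraries than in somatodendritic libraries, in both genotypes. In +/+ motoneurons, members held 0.365, 0.302, 0.337 and 0.397% of the counts of the 4 somatodendritic libraries and 1.02, 1.19, 1.55 and 0.850% of those of the 4 axonal libraries. In Hnrnpr-/- motoneurons, these values were 0.242, 0.392, 0.367 and 0.347% in somatodendritic and 0.949, 1.02, 1.35 and 1.35% in axonal libraries. Every axonal library lay above every somatodendritic library, whereas the genotypes overlapped within each compartment. The means were 0.350 ± 0.0402% (SD, n = 4) and 1.15 ± 0.301% in +/+ and 0.337 ± 0.0661% and 1.17 ± 0.211% in Hnrnpr-/- motoneurons.

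**Figure D1:**
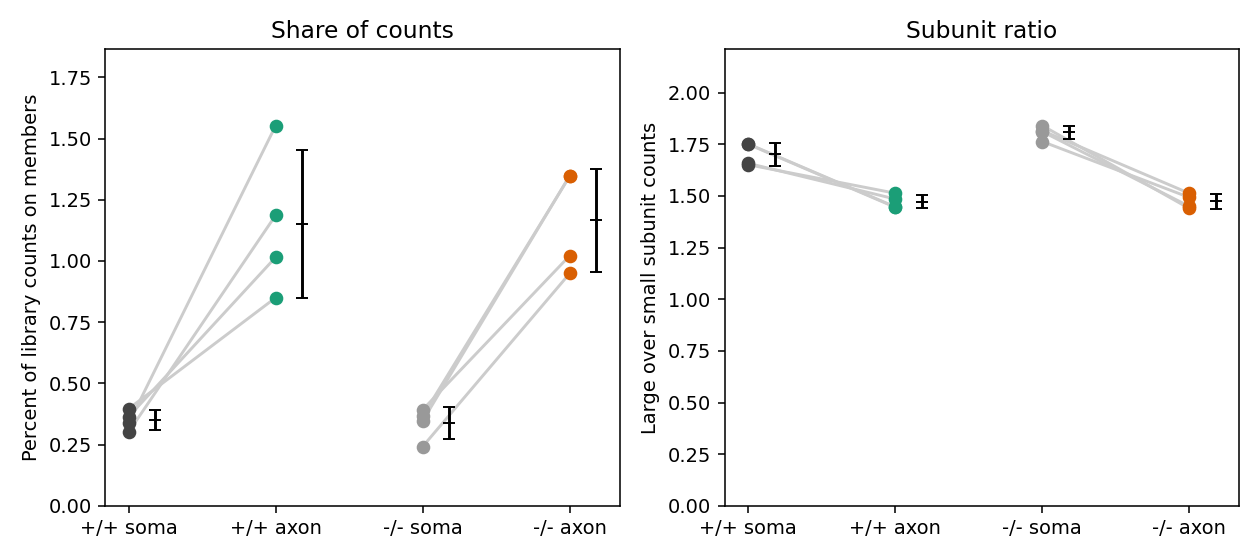
Left, the percent of each library's counts that fell on the members; right, the counts on large subunit members divided by those on small subunit members, with 1 point per library, grey lines joining compartments of the same replicate number, and bars for the mean and SD of 4 libraries. The share lay between 0.242 and 0.397% in somatodendritic and between 0.850 and 1.55% in axonal libraries, and the subunit ratio was lower in every axonal library.

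The highest shares belonged to the axonal libraries with the least neuronal marker RNA. The 3 axonal libraries with the lowest neuronal sums, 202 to 337 CPM, had 1.35 to 1.55% of their counts on members, and the other 5, with sums of 852 to 1783 CPM, had 0.850 to 1.19%. Within these 5 the order did not follow the sums, since the highest share had a sum of 1616 CPM and the lowest one of 852 CPM. All 5 lay above all 8 somatodendritic libraries, of which the highest had 0.397%. Nuclear RNAs also differed between compartments. Malat1 rose by 2.26 in +/+ axons (edgeR adjusted p = 0.000507) and had a value of 0.74 in Hnrnpr-/- axons, Neat1 rose by 2.11 and 1.71, and Meg3 fell by 1.67 and 2.16. Their sum was 613 to 830.2 CPM in +/+ somatodendritic against 491 to 2354 CPM in +/+ axonal libraries, and 629.7 to 1042 against 573 to 776 CPM in Hnrnpr-/- motoneurons. The part of neuronal, other cell or nuclear RNA in the share was not tested beyond these values.

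**Figure D2:**
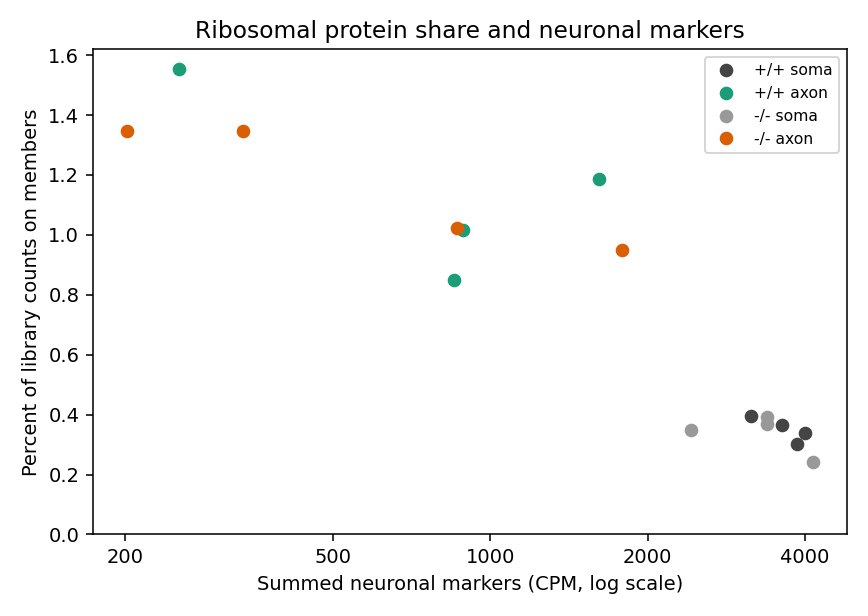
The percent of counts on members (vertical axis) against the summed CPM of 7 neuronal markers (horizontal axis, log scale), with 1 point per library and colours for the 4 groups. The 3 axonal libraries with the lowest sums have the highest shares, and the other 5 axonal points lie above the somatodendritic points.

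Single genes showed the same picture. Of the 93 members tested, the retrocopies Rps12-ps24 and Rpl32l entered the test only through axonal libraries, which sets their direction, so counts and medians are given for the other 91. In edgeR's quasi-likelihood test with Benjamini-Hochberg adjustment over all genes, 88 of 91 members were higher in +/+ axonal than in +/+ somatodendritic libraries and 0 were lower, where 30.1% of all 19964 genes tested were higher and 27.4% lower. In Hnrnpr-/- motoneurons, measured in other libraries that may share batches of cells with the +/+ ones, 88 members were higher and 0 lower, against 27.5% and 26.8% of all genes. The same 88 genes passed in both genotypes. The median log2 fold change was 1.72 in +/+ and 1.92 in Hnrnpr-/- motoneurons, where all genes tested had medians of 0.07 and -0.00. At an unadjusted p under 0.05, no member was lower either, since all 91 estimates were positive. Every +/+ axonal library exceeded every +/+ somatodendritic library for 87 members, which 24.8% of all genes did, and the corresponding number in Hnrnpr-/- motoneurons was 88, against 24.1%. The rise was at least 4-fold for 19 members in +/+ and 32 in Hnrnpr-/- axons. Without the 3 axonal libraries with the lowest neuronal sums, an alternative chosen after seeing the data, 90 of all 93 tested were higher in +/+ and 88 in Hnrnpr-/- axons, beside 90 and 90 with all libraries.

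Large and small subunit genes had similar medians. Among 56 large subunit members, 54 were higher in axons of each genotype, with medians of 1.69 in +/+ and 1.82 in Hnrnpr-/- motoneurons and a +/+ range from 0.30 to 2.80. Among 35 small subunit members, 34 were higher in each genotype, with medians of 1.84 and 1.97 and a +/+ range from 0.21 to 3.70. The ranges overlap. Members kept their order between genotypes, with a Spearman correlation of 0.91 between the fold changes of the 91 genes, a description across genes, which are not independent replicates.

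**Figure D3:**
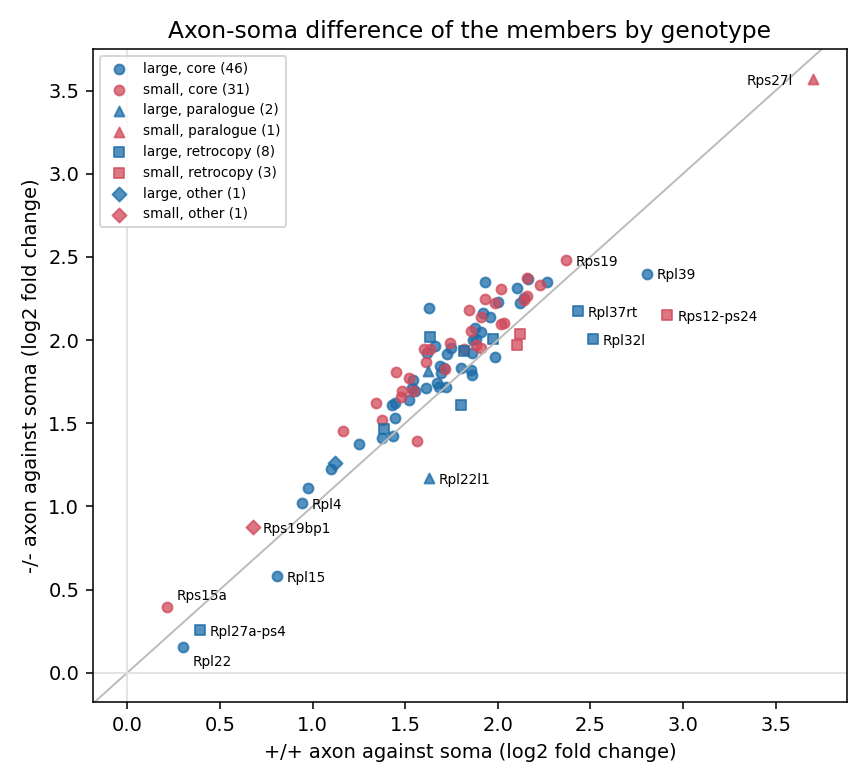
The log2 fold change of axonal against somatodendritic libraries for the 93 tested members in +/+ (horizontal axis) and Hnrnpr-/- motoneurons (vertical axis), coloured by subunit, with marker shapes for standard (core), paralogue, retrocopy and other genes and a grey line where both are equal. Most points lie between 1 and 2.5 on both axes, Rps27l stands apart at the upper end, and Rps15a, Rpl22 and Rpl27a-ps4 lie near 0.

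Within the family, the difference between compartments fell with the length of the gene. For the 77 standard genes, the Spearman correlation between the log2 fold change and the combined exon length, that is the bases covered by the exons of all annotated transcripts, was -0.65 in +/+ and -0.71 in Hnrnpr-/- motoneurons. The 26 shortest genes, of 390 to 629 bases, had median log2 fold changes of 1.92 and 2.16. The 25 genes of 631 to 1062 bases had medians of 1.72 and 1.83, and the 26 longest, of 1063 to 5136 bases, had medians of 1.45 and 1.62. Other genes followed the same direction. Across the 15378 protein-coding genes tested, the correlation was -0.38 in +/+ and -0.41 in Hnrnpr-/- motoneurons, and the 171 other protein-coding genes within the length range of the shortest ribosomal protein genes had medians of 1.68 and 1.69. The 538 others in the middle range had medians of 1.12 and 1.17, and the 9258 in the long range had medians of 0.22 and 0.19. The standard genes had a median length of 821 bases, against 3847.5 bases for all protein-coding genes tested. Their medians lay closest to those of the other genes in the shortest range and farthest from them in the longest. Lengths were not matched inside a range, so standard and other genes may differ in length there, and the part of this in the gaps was not tested.

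**Figure D4:**
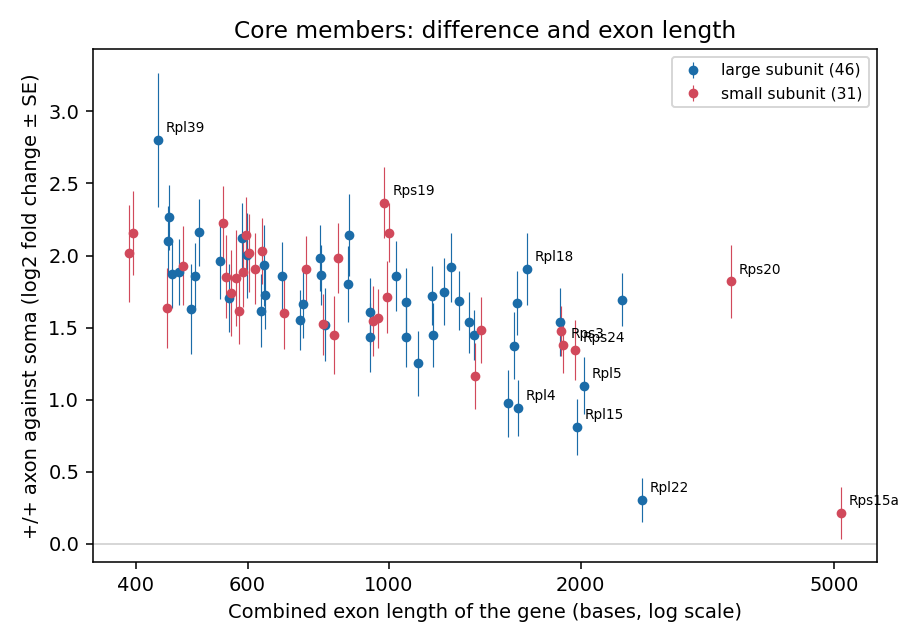
The +/+ log2 fold change of axonal against somatodendritic libraries with its standard error (vertical axis) against the combined exon length in bases (horizontal axis, log scale) for the 46 large and 31 small subunit standard genes. Values fall from left to right, with Rpl39 the highest among the short genes and Rps15a, Rpl22 and Rpl15 the lowest among the long ones.

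Annotated gene starts were searched for the run of C and T that TOP mRNAs carry. In RefSeq's 300-base windows around annotated starts (GRCm38.p6), 70 members had 82 starts. A C followed by 5 or more bases that are each C or T, read on the strand of the gene within 20 bases on either side of the start, was present at 46 of the 82 starts, or 56.1%, and at 29.4% of 32851 starts of all genes. For 38 standard genes with such a run at 1 or more starts, the median axon-soma log2 fold change was 1.74 in +/+ motoneurons, beside 1.63 for 19 standard genes without one. In Hnrnpr-/- motoneurons these medians were 1.93 and 1.72. Annotated starts can lie some bases from the start in use, and a run of this kind is a description, not a measured TOP tract. The 40 bases around the start are shown for a pair of genes near the top of the order (Rpl35 and Rps18), one below the family's median (Rps6) and 3 at the low end (Rpl15, Rps15a, Rpl22), with each such run in capitals and the annotated start at base 21.
Rps18, chr17:33955646-33955685, minus strand: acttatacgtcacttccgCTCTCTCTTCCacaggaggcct
Rpl35, chr2:39005112-39005151, minus strand: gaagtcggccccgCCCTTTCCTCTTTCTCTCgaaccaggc
Rps6, chr4:86857348-86857387, minus strand: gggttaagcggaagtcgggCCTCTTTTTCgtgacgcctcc
Rpl15, chr14:18270967-18271006, minus strand: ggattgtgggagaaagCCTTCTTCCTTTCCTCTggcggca
Rps15a, chr7:118116128-118116167, minus strand: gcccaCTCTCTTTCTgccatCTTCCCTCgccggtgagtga
Rpl22, chr4:152324416-152324455, plus strand: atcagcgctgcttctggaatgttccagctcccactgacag

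The runs of Rps18, Rpl35, Rps6 and Rpl15 span the annotated start, Rps15a has one run upstream of it and another that begins at it, and the annotated start of Rpl22 shown here holds none. Rpl15 and Rps15a have such runs and were among the genes with the smallest differences between compartments. Among genes whose starts are not shown, Rps27l, Rpl39 and Rps2 have a run and rose by more than the family's median in +/+ axons. Rps3 and Rpl24 have none in this window and also rose in axons of both genotypes. These starts are examples, and a tie between run and difference was not tested.

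Rps27l, a paralogue of the small subunit gene Rps27 and a known p53 target, had the largest difference of all members. Its 2748 exonic bases lie at chr9:66851906-66856804 on the plus strand (GRCm39), and no near-identical copy of its coding sequence was found elsewhere in the genome. Rps27l read 8.98, 7.24, 10.4 and 11.8 CPM in +/+ somatodendritic and 85.8, 109, 199 and 106 CPM in +/+ axonal libraries, and 5.68, 9.22, 10.8 and 10.8 CPM in Hnrnpr-/- somatodendritic and 80.1, 73.7, 143 and 136 CPM in Hnrnpr-/- axonal libraries. The lowest axonal library was thus several times above the highest somatodendritic library in both genotypes. The log2 fold change was 3.70 ± 0.33 (SE), adjusted p = 9.27e-06, in +/+ and 3.57 ± 0.33 (SE), adjusted p = 1.59e-05, in Hnrnpr-/- motoneurons. Its parent Rps27 had smaller changes of 1.84 and 2.18, and in +/+ motoneurons it averaged 12.4 ± 5.75 CPM on the somatodendritic side and 44.6 ± 15.6 CPM on the axonal side (SD, n = 4 each). Rps27l departed from the trend with length, as it is longer than 75 of the 77 standard genes.

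Rpl39 encodes one of the smallest proteins of the large subunit, which lies in the wall of the exit tunnel, and had the largest +/+ difference among standard genes. Its gene is at chrX:36346171-36348875 on the minus strand. Rpl39 read 7.27, 6.16, 6.17 and 12.4 CPM in +/+ somatodendritic and 23.1, 122, 51.4 and 26.1 CPM in +/+ axonal libraries, and 4.28, 7.53, 7.7 and 5.02 CPM in Hnrnpr-/- somatodendritic and 34.8, 24.1, 34.9 and 35.6 CPM in Hnrnpr-/- axonal libraries. Groups did not overlap between compartments, yet a single +/+ axonal library, replicate 2, reached more than 2 times the next one. Without it, the +/+ value was 2.06, below that of Rps19 at 2.33, and in Hnrnpr-/- axons Rps19 also had the larger value. The log2 fold change was 2.80 ± 0.46 (SE), adjusted p = 0.000234, in +/+ and 2.40 ± 0.46 (SE), adjusted p = 0.000707, in Hnrnpr-/- axons.

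Rps19, the small subunit gene best known from Diamond-Blackfan anaemia, read 42.6, 27.1, 29.9 and 39.9 CPM in +/+ somatodendritic and 145, 193, 252 and 130.4 CPM in +/+ axonal libraries, and 21.1, 36.6, 35.6 and 28 CPM in Hnrnpr-/- somatodendritic and 163, 132, 195 and 187 CPM in Hnrnpr-/- axonal libraries. Its log2 fold changes were 2.37 ± 0.25 (SE), adjusted p = 2.1e-05, and 2.48 ± 0.25 (SE), adjusted p = 2.45e-05, and the compartments did not overlap in either genotype. Rpl35, whose protein sits near the exit of the tunnel, read 21.5, 15.3, 15.4 and 19.7 CPM in +/+ somatodendritic and 65.4, 96.4, 113 and 71.1 CPM in +/+ axonal libraries, with a log2 fold change of 2.26 ± 0.22 (SE), adjusted p = 1.78e-05. In Hnrnpr-/- motoneurons it read 12.3, 17.7, 18.3 and 14.3 CPM in Hnrnpr-/- somatodendritic and 74.2, 58.6, 94.7 and 92.3 CPM in Hnrnpr-/- axonal libraries and changed by 2.35. The gene Wdr38 overlaps Rpl35 on the opposite strand, and the kit does not mark strand, so reads of the pair cannot be told apart.

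At the lower end, 3 members did not pass the test. Rps15a, a small subunit gene of 5136 exonic bases at chr7:117703597-117715370 on the minus strand, read 41.2, 44.4, 41.6 and 41.9 CPM in +/+ somatodendritic and 42, 52.1, 67.6 and 34.5 CPM in +/+ axonal libraries. In Hnrnpr-/- motoneurons it read 38.4, 37.7, 45.7 and 34.9 CPM in Hnrnpr-/- somatodendritic and 46.3, 45.3, 59.4 and 54.9 CPM in Hnrnpr-/- axonal libraries. The groups overlapped between compartments in both genotypes, and the log2 fold changes were 0.21 ± 0.18 (SE), adjusted p = 0.325, and 0.39 ± 0.18 (SE), adjusted p = 0.0795. Under 7 alternatives, among them library totals in place of TMM factors, protein-coding genes only and pseudogene counts added, the Hnrnpr-/- difference passed with values from 0.43 to 0.51. The +/+ value was 0.066 without +/+ axonal replicate 3 and 0.40 without +/+ axonal replicate 4.

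Rpl22 encodes an RNA-binding protein on the surface of the large subunit that cells can replace by its paralogue Rpl22l1. The gene lies at chr4:152408893-152418539 on the plus strand and spans 2497 exonic bases, with the long non-coding RNA 9430083M05Rik on the opposite strand. Rpl22 read 46.4, 44.2, 47.7 and 51.5 CPM in +/+ somatodendritic and 59.2, 66.3, 63.1 and 45.4 CPM in +/+ axonal libraries, and 41.5, 60.4, 53.1 and 60.6 CPM in Hnrnpr-/- somatodendritic and 57.6, 66.2, 54 and 62.5 CPM in Hnrnpr-/- axonal libraries. The compartments overlapped in both genotypes. Its log2 fold changes were 0.30 ± 0.15 (SE), adjusted p = 0.101, and 0.16 ± 0.15 (SE), adjusted p = 0.401, and the +/+ value passed under 5 alternatives, with values from 0.34 to 0.45. Rpl22l1, in turn, read 9.11, 8.46, 9.43 and 13.7 CPM in +/+ somatodendritic and 17.3, 65.6, 29.6 and 13.1 CPM in +/+ axonal libraries, and 6.95, 10.4, 9.54 and 9.77 CPM in Hnrnpr-/- somatodendritic and 24, 16.9, 25.2 and 16.6 CPM in Hnrnpr-/- axonal libraries. It was higher in axons by 1.63 ± 0.40 (SE), adjusted p = 0.003, in +/+ and 1.17 ± 0.39 (SE), adjusted p = 0.0201, in Hnrnpr-/- motoneurons. One +/+ axonal library overlapped the somatodendritic range. The +/+ value was 0.97 without +/+ axonal replicate 2 and still passed, and the Hnrnpr-/- call was lost without somatodendritic replicate 1 (1.11) or without the 3 axonal libraries with low neuronal sums (1.19).

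The retrocopy Rpl27a-ps4, with 6194 exonic bases that overlap Tnpo1 on the opposite strand, read 1.96, 1.71, 2.15 and 1.97 CPM in +/+ somatodendritic and 1.87, 3.11, 3.6 and 1.65 CPM in +/+ axonal libraries. It read 1.52, 1.38, 2.34 and 0.772 CPM in Hnrnpr-/- somatodendritic and 1.48, 1.8, 2.19 and 1.72 CPM in Hnrnpr-/- axonal libraries, and its log2 fold changes were 0.39 ± 0.34 (SE), adjusted p = 0.332, and 0.26 ± 0.34 (SE), adjusted p = 0.544. The +/+ value was 0.23 without +/+ axonal replicate 3 and 0.60 without +/+ axonal replicate 4, and the Hnrnpr-/- value was 0.029 without Hnrnpr-/- somatodendritic replicate 4 and 0.54 without Hnrnpr-/- somatodendritic replicate 3. Rps19bp1, which encodes a nucleolar partner of Rps19 rather than a ribosomal protein, rose in axons by 0.68 ± 0.18 (SE), adjusted p = 0.00554, in +/+ and by 0.87 ± 0.18 (SE), adjusted p = 0.00125, in Hnrnpr-/- motoneurons. It read 17.7, 17.4, 18.2 and 15.2 CPM in +/+ somatodendritic and 24, 27.7, 34.7 and 23.1 CPM in +/+ axonal libraries, and 16.2, 18.5, 17.6 and 11.4 CPM in Hnrnpr-/- somatodendritic and 32.5, 25.8, 32.7 and 26 CPM in Hnrnpr-/- axonal libraries.

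Rpl15, a core protein of the large subunit, rose less than most standard genes. It read 93.6, 117, 134 and 114 CPM in +/+ somatodendritic and 164, 238, 256 and 145 CPM in +/+ axonal libraries, and 109, 159, 134 and 128 CPM in Hnrnpr-/- somatodendritic and 182, 172, 235 and 205 CPM in Hnrnpr-/- axonal libraries. Axonal libraries lay above somatodendritic libraries in both genotypes, by 0.81 ± 0.20 (SE), adjusted p = 0.00283, and 0.58 ± 0.19 (SE), adjusted p = 0.0199. The Hnrnpr-/- call was lost without the 3 axonal libraries with low neuronal sums, at 0.46. Rpl4 and Rpl3, whose proteins extend into the core of the large subunit, also rose by less than the family's median. Rpl4 read 245, 254, 273 and 293 CPM in +/+ somatodendritic and 449, 459, 694 and 445 CPM in +/+ axonal libraries, and 220.3, 314, 271 and 275 CPM in Hnrnpr-/- somatodendritic and 416, 486, 719 and 569.5 CPM in Hnrnpr-/- axonal libraries, with log2 fold changes of 0.94 ± 0.19 (SE), adjusted p = 0.000944, and 1.02 ± 0.19 (SE), adjusted p = 0.000654. Rpl3 averaged 179.7 ± 25.6 and 353 ± 113 CPM in the +/+ compartments, with log2 fold changes of 0.97 in +/+ and 1.11 in Hnrnpr-/- motoneurons. Zwilch overlaps Rpl4 on the opposite strand.

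**Figure D5:**
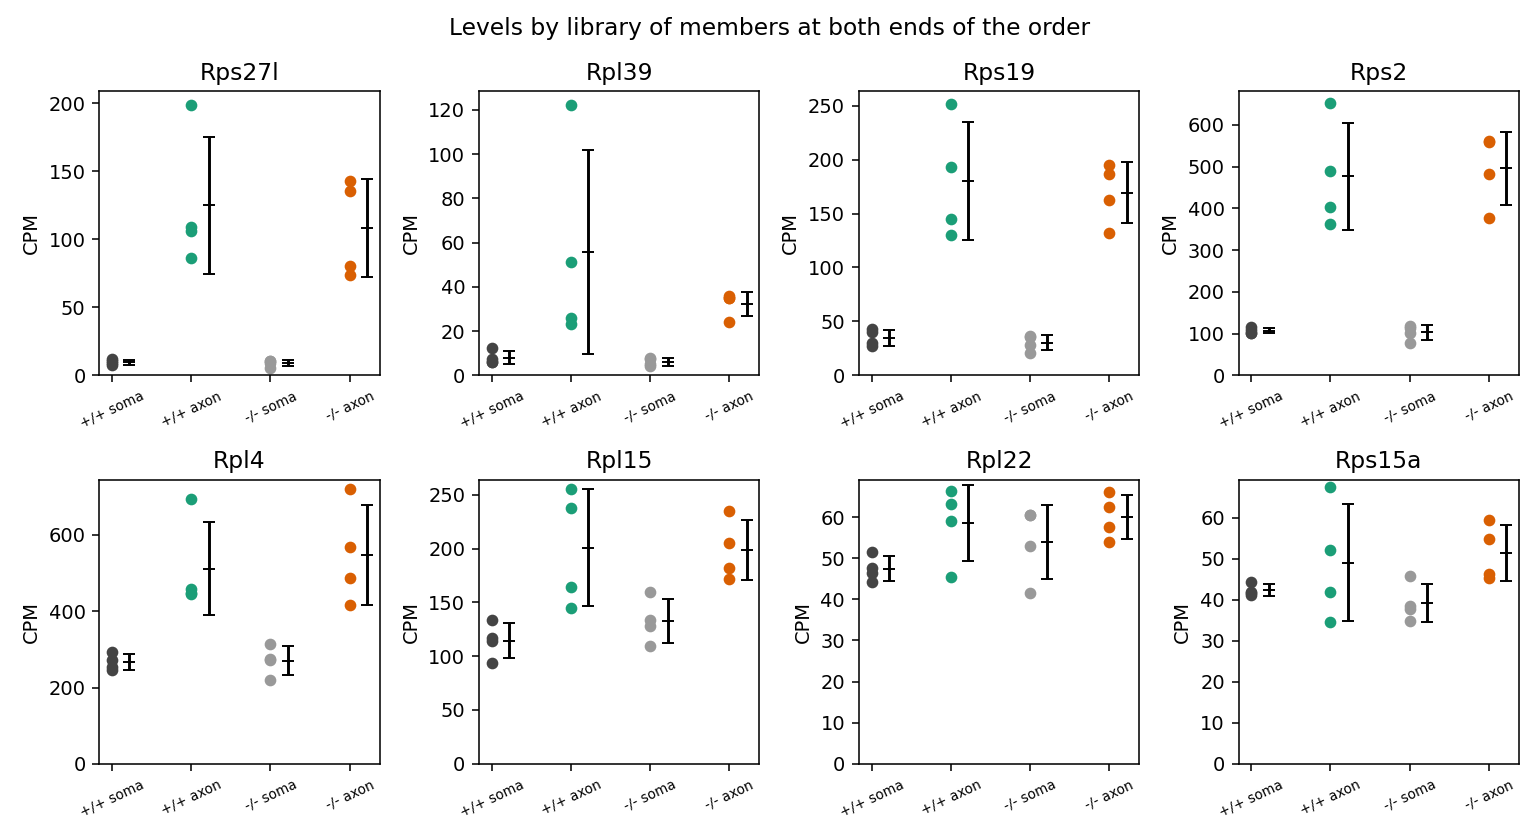
CPM (vertical axes, linear from 0) of 8 members in the 4 groups, with 1 point per library and the mean and SD of 4 libraries beside them. Rps27l, Rpl39, Rps19 and Rps2 show no overlap between compartments, Rpl4 and Rpl15 rise less, and Rpl22 and Rps15a overlap between compartments.

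The small subunit proteins Rps2 and Rps3 line the channel through which the mRNA enters. Rps2 read 101, 102, 115 and 109 CPM in +/+ somatodendritic and 404, 489.6, 651 and 362 CPM in +/+ axonal libraries, and 78.4, 119, 114 and 102 CPM in Hnrnpr-/- somatodendritic and 483, 377, 562 and 559.5 CPM in Hnrnpr-/- axonal libraries, and rose by 2.16 ± 0.20 (SE), adjusted p = 1.31e-05, and 2.26 ± 0.20 (SE), adjusted p = 1.58e-05. Rps2 has 35 near-identical copies in the genome. Rps3 read 125, 109, 117 and 125 CPM in +/+ somatodendritic and 275, 281, 422 and 255 CPM in +/+ axonal libraries, and 88, 129.9, 119.6 and 109.6 CPM in Hnrnpr-/- somatodendritic and 264, 269, 394 and 353 CPM in Hnrnpr-/- axonal libraries. Its log2 fold changes were 1.38 ± 0.19 (SE), adjusted p = 7.08e-05, and 1.52 ± 0.19 (SE), adjusted p = 5.4e-05. Both genes rose in axons without overlap between compartments.

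Further small subunit genes were also higher without overlap. Rps18, near the top of the order, read 37.1, 26.8, 27.1 and 31.9 CPM in +/+ somatodendritic and 124, 138, 211 and 102 CPM in +/+ axonal libraries, and 20.8, 32.3, 35.3 and 26.9 CPM in Hnrnpr-/- somatodendritic and 109, 117, 181 and 173 CPM in Hnrnpr-/- axonal libraries, with log2 fold changes of 2.23 ± 0.25 (SE), adjusted p = 2.71e-05, and 2.33 ± 0.25 (SE), adjusted p = 3.08e-05. Rps6, whose protein is phosphorylated by the S6 kinases, read 73.9, 66.4, 76.7 and 86.6 CPM in +/+ somatodendritic and 183, 192, 305 and 169 CPM in +/+ axonal libraries, and 52.1, 79.8, 77.4 and 64.6 CPM in Hnrnpr-/- somatodendritic and 165, 179.8, 304 and 235 CPM in Hnrnpr-/- axonal libraries, with log2 fold changes of 1.48 ± 0.23 (SE), adjusted p = 0.000149, and 1.69 ± 0.23 (SE), adjusted p = 8.78e-05. Of the 77 standard genes, 75 had 1 to 62 near-identical copies, with a median of 6 over all 77, so that their fractional counts depend on how reads were divided. The 4 tested members without a copy, among them Rpl41 and Rps27l, all passed in both genotypes.

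Of the large subunit genes Rpl13, Rpl14 and Rpl24, Rpl13 read 84.1, 71.9, 71.9 and 65.3 CPM in +/+ somatodendritic and 263, 297, 388 and 211 CPM in +/+ axonal libraries, and 54, 98.3, 84.4 and 84.5 CPM in Hnrnpr-/- somatodendritic and 219, 268, 358 and 352 CPM in Hnrnpr-/- axonal libraries. Its log2 fold changes were 1.98 ± 0.23 (SE), adjusted p = 2.83e-05, and 1.90 ± 0.23 (SE), adjusted p = 4.19e-05. Rpl14 read 68.9, 61, 68.5 and 69.8 CPM in +/+ somatodendritic and 184, 185, 305 and 146 CPM in +/+ axonal libraries, and 51.6, 77.5, 80.4 and 60.2 CPM in Hnrnpr-/- somatodendritic and 172, 188, 288 and 238 CPM in Hnrnpr-/- axonal libraries, and changed by 1.61 ± 0.23 (SE), adjusted p = 9.28e-05, and 1.71 ± 0.23 (SE), adjusted p = 8.36e-05. Rpl24, whose protein sits at the bridge between the subunits, read 28.7, 23.3, 24.6 and 30.7 CPM in +/+ somatodendritic and 74.6, 98.7, 142 and 72.5 CPM in +/+ axonal libraries, and 19.7, 32, 31.8 and 22 CPM in Hnrnpr-/- somatodendritic and 79.4, 77.2, 117 and 98.6 CPM in Hnrnpr-/- axonal libraries, and changed by 1.86 ± 0.24 (SE), adjusted p = 4.88e-05, and 1.82 ± 0.24 (SE), adjusted p = 7.22e-05. For these 3 genes the compartments did not overlap in either genotype.

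The members are next given by role. Since 88 of 91 members rose, a count within a role mirrors that of the family and is not particular to the role. The stalk proteins Rplp0, Rplp1 and Rplp2, which recruit translation factors, and Rpl12 at its base all rose, by 1.45, 1.88, 1.87 and 1.72 in +/+ and by 1.62, 2.00, 2.07 and 1.92 in Hnrnpr-/- axons on the log2 scale. Rplp0, the scaffold of the stalk, read 203, 189.7, 198 and 184 CPM in +/+ somatodendritic and 501, 496, 692 and 426 CPM in +/+ axonal libraries. Rplp1 read 34.6, 23.5, 25.9 and 29.6 CPM in +/+ somatodendritic and 85.6, 121, 130.0 and 83 CPM in +/+ axonal libraries, Rplp2 read 14.6, 11.2, 10.8 and 16.7 CPM in +/+ somatodendritic and 37.6, 51.2, 68.1 and 38.4 CPM in +/+ axonal libraries and Rpl12 read 29.2, 22.1, 25.8 and 34.7 CPM in +/+ somatodendritic and 67.1, 109, 125 and 68.2 CPM in +/+ axonal libraries. The axonal libraries of all 4 genes lay above their somatodendritic libraries.

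Rpl5 and Rpl11, which bind the 5S RNA and, when free, the p53 regulator Mdm2, rose by 1.10 ± 0.20 (SE), adjusted p = 0.000397, and 1.67 ± 0.22 (SE), adjusted p = 5.62e-05, in +/+ axons and by 1.23 and 1.74 in Hnrnpr-/- axons. Rpl5 read 80, 77.5, 92.8 and 97 CPM in +/+ somatodendritic and 149, 182, 246 and 166 CPM in +/+ axonal libraries, and Rpl11 read 28.7, 20.4, 22 and 25 CPM in +/+ somatodendritic and 65.3, 73, 112 and 55.4 CPM in +/+ axonal libraries. Of the 8 genes whose proteins line the exit tunnel or its mouth, 7 rose in each genotype, Rpl22 being the exception, and the range in +/+ axons was 0.30 to 2.80. Among them, Rpl19 read 76.6, 64.2, 68.4 and 69.8 CPM in +/+ somatodendritic and 202, 207, 305 and 188 CPM in +/+ axonal libraries, and Rpl26 read 24.5, 14.3, 17.7 and 28.8 CPM in +/+ somatodendritic and 62.7, 91.3, 111 and 66.9 CPM in +/+ axonal libraries. Rpl17, Rpl19, Rpl23a, Rpl26 and Rpl31 rose by 1.54, 1.69, 1.71, 1.96 and 1.92 in +/+ axons. Rps27a, which is made as a fusion with ubiquitin, read 31.1, 21.9, 24.8 and 43.6 CPM in +/+ somatodendritic and 68.3, 81.6, 118 and 63.7 CPM in +/+ axonal libraries, and 16.2, 30.9, 26.5 and 24.5 CPM in Hnrnpr-/- somatodendritic and 70.7, 69, 104 and 100.3 CPM in Hnrnpr-/- axonal libraries, and rose by 1.45 ± 0.27 (SE), adjusted p = 0.000496, and 1.81 ± 0.27 (SE), adjusted p = 0.00015.

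Rpl36al, a paralogue of Rpl36a, rose by 1.62 ± 0.26 (SE), adjusted p = 0.000166, and 1.81 ± 0.26 (SE), adjusted p = 0.00011, beside 1.63 and 2.20 for Rpl36a. Rpl7l1, a factor of subunit assembly named after Rpl7, rose by 1.12 and 1.26, beside 1.43 and 1.61 for Rpl7. Rpl10 and Rps4x, which lie on the X chromosome, rose by 1.52 and 1.17 in +/+ axons. The testis paralogue Rpl10l had 0 counts in all 16 libraries, which allows up to 3 counts in each. Rpl39l had 0 to 22 counts and the muscle paralogue Rpl3l 0 to 9.5 counts per library, too few for a test. The remaining 9 members that were not tested were retrocopies with at most 12.4 counts in a library.

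Of the 11 retrocopies that were tested, Rps12-ps24 and Rpl32l passed the expression filter only through axonal libraries, so no fold change or p is printed for them, and 8 of the other 9 rose in each genotype. Rps12-ps24 read 0.0904, 0.045, 0.124 and 0.0469 CPM in +/+ somatodendritic and 0.442, 0.73, 0.714 and 0.581 CPM in +/+ axonal libraries, and Rpl32l read 0.121, 0.09, 0.0414 and 0.188 CPM in +/+ somatodendritic and 0.681, 0.757, 0.714 and 0.428 CPM in +/+ axonal libraries. A floor of 3 counts corresponds to 0.0905 to 0.141 CPM in somatodendritic libraries. Rpl37rt read 1.63, 0.9, 1.08 and 1.22 CPM in +/+ somatodendritic and 3.47, 10.5, 7.82 and 4.4 CPM in +/+ axonal libraries, and Rps27rt read 0.784, 0.315, 0.703 and 0.844 CPM in +/+ somatodendritic and 1.91, 4.11, 4.06 and 1.53 CPM in +/+ axonal libraries. All of these levels are low, the deposited counts divide reads that match several positions, and every tested member had fractional values in at least 1 library. The +/+ log2 fold changes of Rpl37rt and Rps27rt were 2.43 and 2.12.

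Fau and Rack1, outside the rule, also rose. Fau, made as a fusion of a ubiquitin-like domain with a small subunit protein, was at 24.8, 17.5, 16.6 and 21.9 CPM in +/+ somatodendritic and 54.7, 69.3, 85.5 and 59.1 CPM in +/+ axonal libraries, with a log2 fold change of 1.74 in +/+ and 2.01 in Hnrnpr-/- motoneurons. Rack1, the scaffold on the small subunit, changed by 1.68 and 1.83. Both passed the test in both genotypes.

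Other lists of the pathway had smaller medians. Their counts are to be read against the 30.1% of all genes that were higher and the 27.4% lower in +/+ axons, and the 27.5% and 26.8% in Hnrnpr-/- axons. Of the 78 mitochondrial ribosomal protein genes, 66 were higher and 0 lower in +/+ axons, with a median log2 fold change of 0.81, and 68 were higher in Hnrnpr-/- axons, with a median of 0.95. Of 17 other mRNAs with a TOP tract, 14 were higher and 0 lower in +/+ axons, with a median of 0.76, and 15 and 0 in Hnrnpr-/- axons, with a median of 0.86. Among these, Tpt1, which encodes a translationally controlled protein, had a value of 1.53 and the elongation factor Eef1a1 0.64. Of 50 ribosome biogenesis factors, 31 were higher and 3 lower in +/+ axons, with a median of 0.64, and 33 and 1 in Hnrnpr-/- axons, with a median of 0.80. Nhp2 and Gar1, subunits of the box H/ACA particles that modify rRNA, rose by 2.21 and 1.53, and Rrp12, Utp15 and Heatr1 fell by 0.89, 0.88 and 0.84 in +/+ axons. Of 11 genes of RNA polymerase I and its factors, 4 were higher and 2 lower in +/+ axons and 3 and 1 in Hnrnpr-/- axons, with medians of 0.13 and 0.15, which is near or below the shares of all genes. Of 20 TOP mRNA and mTORC1 regulators, 7 were higher and 6 lower in +/+ axons, near the shares of all genes, among them Mtor at -2.08, Rptor at -1.50, the TOP-binding protein Larp1 at -0.59 and the translational repressor Eif4ebp1 at 4.31. In Hnrnpr-/- axons, 4 were higher and 7 lower. Of 17 genes of ribosome-associated quality control, 1 was higher, Edf1 at 1.62, and 9 were lower, among them the ribosome collision sensor Gcn1 at -1.57. In Hnrnpr-/- axons, 1 was higher and 5 were lower.

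Over the 16 libraries, the 5 genes outside the family whose log2(CPM + 1) followed the members' mean most closely were Nedd8, Psmb2, Gm10335, Snrpd2 and Gm10132, with Pearson correlations from 0.9953 to 0.9978. The libraries fall into 2 compartments, so these values describe mainly the shared difference between compartments.

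The balance of the subunits shifted between compartments. Counts on large subunit members divided by counts on small subunit members gave 1.65 to 1.75 across the +/+ somatodendritic group and 1.76 to 1.84 across the Hnrnpr-/- one. Axonal libraries gave 1.45 to 1.51 and 1.44 to 1.51. Axonal libraries lay below somatodendritic libraries in both genotypes. The means were 1.70 ± 0.0559 (SD, n = 4) and 1.47 ± 0.0326 in +/+ and 1.81 ± 0.0324 and 1.47 ± 0.0348 in Hnrnpr-/- motoneurons. The somatodendritic ranges of the genotypes did not overlap, by a gap between 1.752 and 1.763, and no test was made of this ratio, since the members were chosen with earlier results known. Without Rpl4, the member with the highest mean CPM in the somatodendritic libraries of both genotypes, the ratio was 1.46 to 1.54 and 1.57 to 1.61 in the somatodendritic libraries and 1.33 to 1.38 in the axonal libraries of both genotypes. Rpl4 alone took 7.23 ± 0.579% of the member counts in +/+ somatodendritic and 4.71 ± 0.525% in +/+ axonal libraries.

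To find members that departed from the family, the sum of member counts was used as library size. By this measure, 20 of the 93 members, or 19 of the 91 above, gained and 10 lost a share of the ribosomal protein counts in +/+ axons. In Hnrnpr-/- axons, 23 gained and 9 lost one. Of all genes tested, 5.13% were higher and 65.3% lower on this scale in +/+ and 3.24% and 71.4% in Hnrnpr-/- motoneurons, as the scale is set by the rising family itself. With the median of ratios over members as library size, 12 were higher and 11 lower in +/+ and 13 and 14 in Hnrnpr-/- axons, so the split depends on the scaling. In +/+ axons, 11 gained a share without +/+ somatodendritic replicate 3, and 13 without +/+ somatodendritic replicate 2 or +/+ axonal replicate 2. The same members gained a share in both genotypes in 14 cases and lost one in 9 cases.

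The gains common to both genotypes were led by Rps27l, with a log2 change in share of 2.12 ± 0.20 (SE), adjusted p = 8.73e-06, in +/+ and 1.87 ± 0.20 (SE), adjusted p = 1.07e-05, in Hnrnpr-/- axons. They included Rps19 at 0.80, Rpl35 at 0.70, Rps18 at 0.64, Rpl32 at 0.59, Rps28 at 0.59, Rps2 at 0.58, Rpl37 at 0.57, Rps14 at 0.55 and Rpl41 at 0.55 in +/+ axons. Rpl37a, Rps15 and Rpl26 were also among the 14. The losses were led by Rps15a with -1.38 ± 0.17 (SE), adjusted p = 1.81e-05, and -1.30 ± 0.17 (SE), adjusted p = 1.79e-05. Rpl22 followed with -1.23 and -1.48, Rpl27a-ps4 with -1.20 and -1.42, Rps19bp1 with -0.89 and -0.79 and Rpl15 with -0.77 and -1.09. Rpl4, Rpl3, Rpl5 and Rpl7l1 had smaller losses of -0.62, -0.60, -0.46 and -0.44 in +/+ axons.

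As a share of the member counts, Rps27l rose from 0.259 ± 0.0355% in +/+ somatodendritic to 1.12 ± 0.200% in +/+ axonal libraries and from 0.260 ± 0.0489% to 0.948 ± 0.153% in Hnrnpr-/- motoneurons. Rps15a fell from 1.15 ± 0.144% to 0.445 ± 0.0210% in +/+ and from 1.15 ± 0.220% to 0.465 ± 0.0260% in Hnrnpr-/- motoneurons. Rpl22 fell from 1.29 ± 0.0584% to 0.548 ± 0.0957% and from 1.55 ± 0.159% to 0.556 ± 0.133%. The ranges of these 3 genes did not overlap between compartments.

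Levels per kilobase of combined exon length, the scale on which genes can be compared, spread widely. In +/+ somatodendritic libraries, the 77 standard genes ranged from 4.74 CPM per kb for Rps20 to 166.7 CPM per kb for Rpl4, with a median of 38.7. Rplp0 at 142 and Rpl3 at 117 CPM per kb followed Rpl4. In +/+ axonal libraries, the median was 127 CPM per kb, and Rps2 led with 477 CPM per kb, ahead of Rplp0 with 389 and Rpl41 with 374 CPM per kb. Rps15a was lowest there with 9.55 CPM per kb. The median level of small subunit genes was 41.5 CPM per kb in +/+ somatodendritic and 152 in +/+ axonal libraries, beside 32.6 and 106 CPM per kb for large subunit genes. The long exon models of Rps15a and Rps20 lower their values on this scale. The order of the levels was similar in both compartments, with a Spearman correlation of 0.93 across the 77 genes. Both levels of a gene are divided by the same length, which can raise this value, and genes are not independent replicates.

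Loss of Hnrnpr did not change any member past the threshold. In axons, 0 of 93 members passed the adjusted threshold in edgeR, where 0.01% of all genes did, and 0 passed at an unadjusted p under 0.05, where 3.88% of all genes did. In the somatodendritic compartment both counts were also 0, where 0.00501% and 0.601% of all genes passed. For the difference between compartments in the genotype effect, both counts were 0, where 0% and 1.33% of all genes passed. DESeq2 gave 0 members at the adjusted threshold in each of these comparisons and, at an unadjusted p under 0.05, 0 in axons, 0 for the difference and 1 in the somatodendritic compartment, which was Rpl38.

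The median log2 fold change of Hnrnpr-/- against +/+ libraries was -0.03 in axons, with 41 members above 0 and 52 below, and -0.15 in the somatodendritic compartment, with 82 of 93 below 0. All genes tested had medians of 0.02 and 0.00. Leaving out 1 library turned the direction of the axonal median, which was 0.20 without +/+ axonal replicate 3, also above 0 without +/+ axonal replicate 2 or Hnrnpr-/- axonal replicate 1 or 2, and -0.13 without +/+ axonal replicate 4. The somatodendritic value was -0.03 without Hnrnpr-/- somatodendritic replicate 1, the library with the lowest share of counts on members. By subunit, the medians were -0.03 for both in axons and -0.15 for large and -0.14 for small subunit members in the somatodendritic compartment. The standard error of a member's genotype effect was 0.15 to 0.43 in axons and 0.15 to 0.49 in the somatodendritic compartment, so changes of small size were not detectable in a single gene at this spread.

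In axons, the lowest p values belonged to Rpl39, Rpl22l1 and Rpl27a-ps4, with log2 fold changes of -0.79 ± 0.43 (SE), unadjusted p = 0.0908, -0.60 ± 0.39 (SE), unadjusted p = 0.138, and -0.51 ± 0.34 (SE), unadjusted p = 0.151. In each case +/+ axonal replicate 2 or 3 was the highest library of both genotypes, and without +/+ axonal replicate 2 the estimate was -0.051 for Rpl39 and 0.046 for Rpl22l1. The estimate for Rpl27a-ps4 was -0.29 without +/+ axonal replicate 3. In the somatodendritic compartment, they belonged to Rpl38, Rpl31 and Rps25. Rpl38, a large subunit gene with a known part in the translation of Hox mRNAs, read 11.8, 7.02, 8.69 and 13.4 CPM in +/+ somatodendritic and 27.6, 45.5, 54.8 and 28.2 CPM in +/+ axonal libraries, and 5.39, 7.96, 8.58 and 5.83 CPM in Hnrnpr-/- somatodendritic and 39.1, 25.7, 42.3 and 34.4 CPM in Hnrnpr-/- axonal libraries. The somatodendritic genotypes overlapped, and its log2 fold change was -0.56 ± 0.27 (SE), unadjusted p = 0.0588. Rpl31 had a value of -0.39 ± 0.23 (SE), unadjusted p = 0.117, and Rps25, which some viral RNAs require for internal initiation, one of -0.40 ± 0.25 (SE), unadjusted p = 0.126. Rpl31 read 18.4, 12, 13.9 and 22.3 CPM in +/+ somatodendritic and 46.3, 77.7, 77.6 and 50.2 CPM in +/+ axonal libraries, and 10.1, 14.7, 14.1 and 12 CPM in Hnrnpr-/- somatodendritic and 59.5, 43.9, 58.1 and 66.4 CPM in Hnrnpr-/- axonal libraries. Rps25 read 31.1, 20.9, 21.8 and 40.1 CPM in +/+ somatodendritic and 67.1, 101, 115 and 63.3 CPM in +/+ axonal libraries, and 16.5, 24.8, 25.4 and 19.6 CPM in Hnrnpr-/- somatodendritic and 74.2, 72.2, 99 and 87.8 CPM in Hnrnpr-/- axonal libraries. The somatodendritic genotypes overlapped for both genes, and without +/+ somatodendritic replicate 4, which had the highest value of each, the estimates were -0.20 for Rpl31 and -0.18 for Rps25.

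Members whose proteins the study names did not pass the genotype test either. These 10 genes, among them Rps2, Rps3, Rps6, Rps18, Rpl13 and Rpl24, had genotype log2 fold changes with a median of 0.05 in axons and -0.07 in the somatodendritic compartment, with lowest unadjusted p values of 0.63 and 0.30. A p that misses the threshold does not show that their levels are alike, and the interval of a gene with a standard error of 0.24, such as Rps18, spans changes in either direction.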

How the data were processed

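The authors trimmed SMART-Seq v4 reads, aligned them to GRCm39 with STAR 2.7.2b and counted exons with featureCounts 1.6.4. Reads with several positions or several genes were counted as fractions, so the deposited values are expected counts that need not be whole, and they were rounded here. The reads were counted on the reverse strand although the kit does not mark strand. Library totals and the floor of 3 counts for a value of 0 cover counting error only.

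Genes were filtered with filterByExpr, scaled by TMM and tested with edgeR 4.0.16 (R 4.3.3, limma 3.58.1) by a two-sided quasi-likelihood test over all 4 groups, with Benjamini-Hochberg adjustment over 19964 genes and a threshold of 0.05. The test was checked on simulated counts. Member shares used the summed member counts as library size. Coding sequences were searched in GRCm39 with blastn 2.17.0, and a near-identical copy had at least 100 bases at 95% identity or more. Start sequences came from RefSeq (GRCm38.p6), and no coordinate was converted. Alternatives were other scaling and filters, DESeq2 1.42.0, replicate blocks, libraries left out, protein-coding genes only and pseudogene counts added.

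The members and lists were chosen with earlier results of these data known. Genes named with values were the 5 highest and 5 lowest of the +/+ compartment difference, up to 10 with a changed share in both genotypes, those the study names, paralogues, role groups and the lowest genotype p values. Others are given as examples chosen after their values were seen. Axonal and somatodendritic libraries of the same number deviated together, with correlations of 0.105 to 0.241 in +/+ and 0.175 to 0.508 in Hnrnpr-/- pairs, so a replicate block was an alternative. All columns of the table were assigned to a library. Some genes that the rules name are not reported here.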

Additional observations from a re-analysis of the deposited data

Results flagged for a closer look

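Of 164 sets of 4 libraries examined for the named members, 6 held a library whose distance to the nearest other was past Dixon's 95% critical value, which chance alone exceeds in about 1 in 20 sets. In +/+ axonal replicate 3, which had the lowest neuronal marker sum of its group, Rpl4 stood at 694 CPM, Rpl19 at 305 CPM, Rps3 at 422 CPM and Rps6 at 304.6 CPM, each above the other 3 libraries. Rpl14 was lowest in +/+ somatodendritic replicate 2, at 61.0 CPM. Rpl39 was lowest in Hnrnpr-/- axonal replicate 2, at 24.1 CPM. The cause was not tested.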

How the results depend on the processing

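The count of the 93 tested members higher in axons was 90 or 91 in +/+ and 88 to 91 in Hnrnpr-/- motoneurons under every alternative that kept all members, and 0 were lower. Restricted to members without a near-identical copy, chosen after seeing the data, it was 4 and 4 of 4, since fewer genes were counted. With the replicate block, the counts were 90 and 90 for the compartments and 0, 0 and 0 for the genotype comparisons. Between genotypes, libraries of the same number correlated by -0.046 to 0.359 in the somatodendritic and 0.0095 to 0.677 in the axonal compartment, the highest value in each for replicate 3. The labels do not tie the numbers to batches, although the study states that conditions within an experiment shared a batch of cells, so whether a number marks a batch was not settled here. The members with a changed share were the most dependent on the settings. With the median of ratios, 12 had a higher share in +/+ axons, and in Hnrnpr-/- axons 13 had a higher and 14 a lower share. Leaving out 1 library gave 11 to 24 higher in +/+ axons, with 11 without +/+ somatodendritic replicate 3 and 13 without +/+ somatodendritic replicate 2 or axonal replicate 2. The cause was not tested. The genotype estimate of Rpl22l1 in axons ranged from -0.85 to 0.046 with 1 library left out and turned positive without +/+ axonal replicate 2. The median genotype effect over members ranged from -0.13 to 0.20 in axons with 1 library left out. At an unadjusted p under 0.05, leaving out 1 library gave 0 to 2 members in axons and 0 to 3 in the somatodendritic compartment. The share change of Rps19bp1 in Hnrnpr-/- axons was -0.58 and no longer passed without the 3 axonal libraries with the lowest neuronal sums. For the genotype medians and unadjusted counts and for single genes, 2736 values kept their direction and side of the threshold or, for the medians, stayed within 1 SD of the libraries whatever their sign, 12 became significant, 4 lost significance, 9 of the unadjusted counts moved and 1 value reversed. Among the other summary results, 422 values stayed and the 8 that moved are those of the changed shares and of the members without a copy above.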
